A study of Homo sapiens with 4 samples.

Results

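Lysosomes are acidic organelles in which hydrolases break down proteins, glycans and lipids. The vacuolar ATPase (V-ATPase), a proton pump with a membrane-embedded V0 sector and a cytosolic V1 sector, keeps the lumen acidic, and autophagy delivers cytoplasmic cargo to it. Many of these genes are known targets of TFEB and TFE3, transcription factors that mTORC1 keeps out of the nucleus when nutrients are plentiful. Pancreatic ductal adenocarcinoma cells are known for high lysosomal and autophagic activity. The 45 genes described here were chosen by name and role from the 58735 genes of the count table: 9 lysosomal proteases, 7 glycosidases and lipid hydrolases, 4 lipid transfer, activator and granulin proteins, 3 lysosomal membrane proteins, 13 V-ATPase subunits and accessory proteins, 2 factors of the TFEB family and 7 autophagy genes. All 45 were found in the table under those names. They were chosen with earlier results of these data known, so comparisons of the 45 with all genes are descriptions and not tests.

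Cells of SW1990, an established human pancreatic adenocarcinoma line, received gomisin G, a plant lignan known from Schisandra, at 10 µM for 24 h (2 libraries) or vehicle for the same time (2 libraries). The series concerns growth inhibition and the Hippo-YAP pathway, and the comparison described here asks which lysosomal and autophagy transcripts differed between gomisin G and vehicle in this single cell line. The libraries were RNA-seq of total RNA depleted of ribosomal RNA, per the labels. The vehicle is not named in the labels, and they do not say whether replicates were separate cultures. A p-value here therefore reflects differences between libraries that may be purely technical. Total counts were 15034663 and 15245770 in gomisin G libraries and 14580848 and 14901526 in vehicle libraries. The 2 gomisin G libraries differed from each other more than the 2 vehicle libraries did, with a chi-square per gene of 37.2 in the gomisin G pair and 6.98 in the vehicle pair. Epithelial and duct markers were detected for 10 of 10 genes, with a summed level of 9639 and 8183 CPM (counts scaled to library size) in gomisin G libraries and 11901 and 10163 CPM in vehicle libraries. Macrophages and other leukocytes are rich in lysosomes. Their 10 markers summed to 6.19 and 5.58 CPM in gomisin G libraries and to 5.69 and 6.91 CPM in vehicle libraries, and PTPRC, CD163, TYROBP and AIF1 were at 0 counts in all 4 libraries. The 10 fibroblast markers summed to 8.25 and 12.5 CPM with gomisin G and to 4.80 and 4.90 CPM with vehicle, with 4 genes at 0 in every library. The 7 acinar markers summed to 0.865 and 0.525 CPM with gomisin G and to 0.617 and 0.336 CPM with vehicle, with 4 genes at 0 in every library. The part of the fibroblast markers in the results was not tested.

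Most of the 45 transcripts were somewhat more abundant with gomisin G, and no single one passed the test across all genes. The median log2 change (gomisin G minus vehicle) was 0.27 over the 45 genes and 0.0092 over all 15721 genes tested. Since the 45 were named with earlier results known, the shares of all genes given here are for description only. The log2 change was positive in 36 of the 45 and negative in 9, where 50.7% of all tested genes had a positive one. With upper-quartile factors 40 were positive, and the other scalings kept the number at 36. With edgeR's quasi-likelihood test 0 of 45 passed an adjusted p of 0.05, where 1.83% of all tested genes did. At an unadjusted p below 0.05 there were 14 members, all of them higher with gomisin G, or 31.1% of the members, where 10.9% of all tested genes were higher at that level. DESeq2 called 3 members, CTSD, GRN and SQSTM1, all higher, against 2.87% of all genes called higher by it, and limma voom called 0, against 1.58% of all genes called in either direction. In 30 of the 45 both gomisin G libraries lay above both vehicle libraries, a pattern that 27.0% of all tested genes also had. In 4 of the 45 both lay below, against 27.3% of all genes, and in 11 the groups overlapped. All 45 genes passed the filter on low counts, but CTSS passed it through its gomisin G libraries alone. CTSS is counted among the 36 positive genes, the 14 and the 30, so these counts rest in part on that filter. In bulk RNA a difference in the number of cells of one kind and a difference in RNA per cell cannot be told apart.

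**Figure D1:**
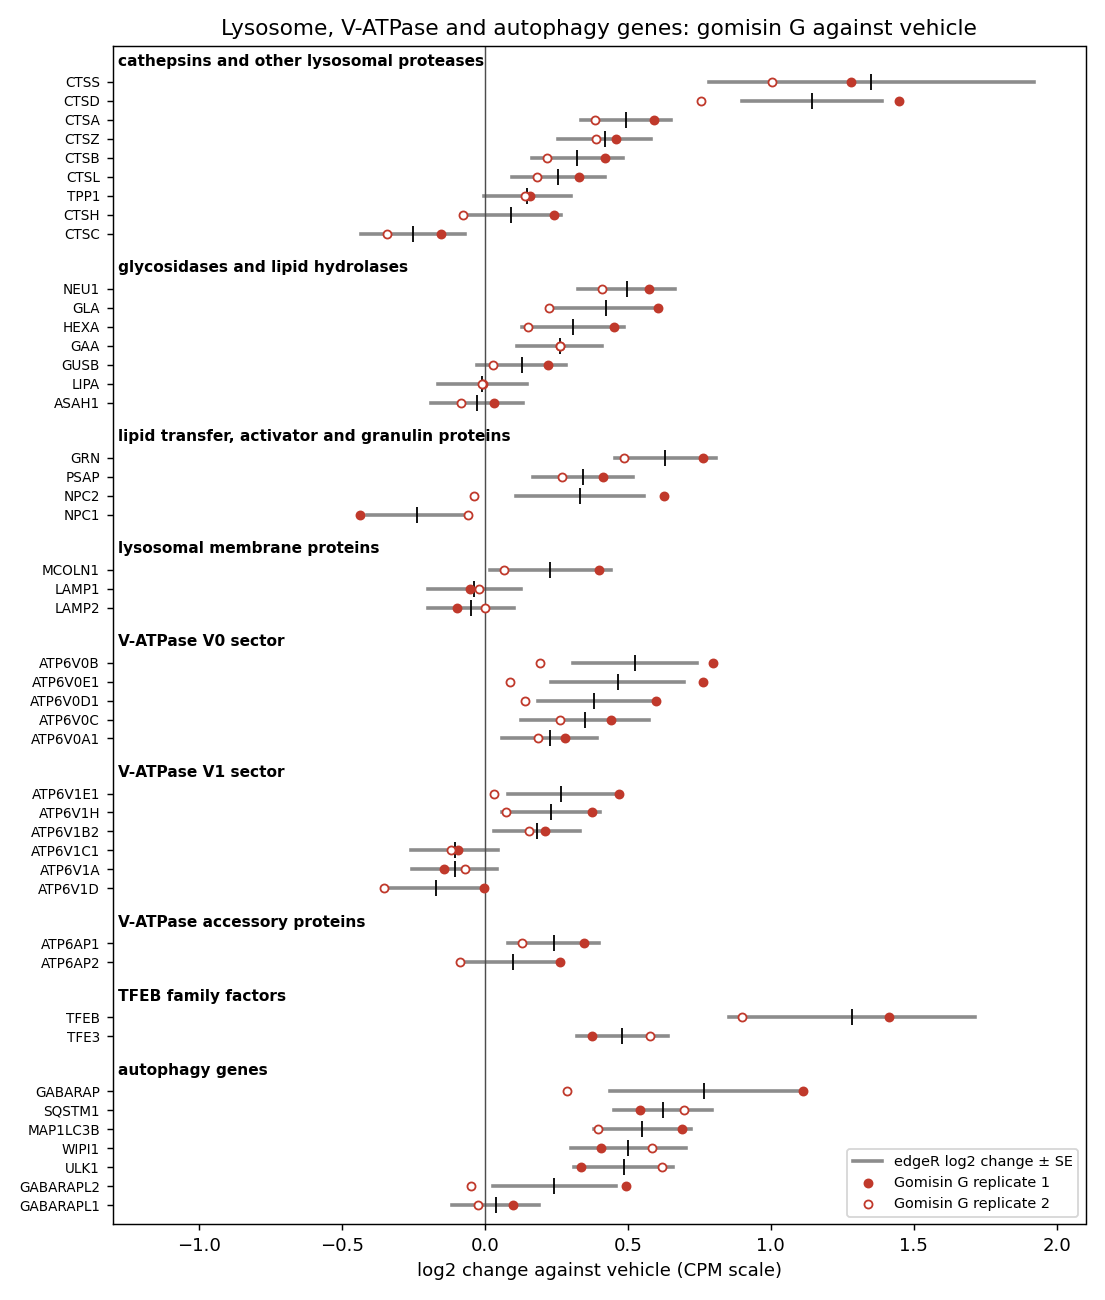
Log2 change of each of the 45 genes on the CPM scale, by role. Black ticks are the edgeR log2 change (gomisin G minus vehicle) with its standard error as a grey bar, filled points are gomisin G replicate 1 and open points replicate 2, each against the mean of the 2 vehicle libraries. Of the ticks, 36 lie right of 0, and the proteases CTSS and CTSD and the factor TFEB lie farthest to the right.

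The 2 libraries of the gomisin G group did not weigh equally. Over the 45 genes the median change against the vehicle mean came to 0.40 for gomisin G replicate 1 and to 0.15 for replicate 2, and 37 of the 45 (82.2%) lay higher in replicate 1, where 48.4% of all tested genes did. The 5 widest gaps were those of GABARAP, CTSD, ATP6V0E1, NPC2 and ATP6V0B, which were 0.82, 0.69, 0.67, 0.66 and 0.60 higher in replicate 1 on the log2 scale. NPC1, ULK1, TFE3, WIPI1 and SQSTM1 went the other way, with replicate 1 lower than replicate 2 by amounts (replicate 1 minus replicate 2) of -0.38, -0.28, -0.20, -0.18 and -0.15.

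TFEB and TFE3, the factors that switch on lysosomal genes, both had higher levels in the gomisin G libraries, without passing the test. TFEB (chromosome 6, 41683978 to 41736259, GRCh38) was scarce, with 36 and 27 counts in gomisin G libraries and 12 and 13 counts in vehicle libraries. These are 2.49 and 1.70 CPM with gomisin G and 0.828 and 0.875 CPM with vehicle. The groups did not overlap, and the log2 change was 1.28 (SE 0.43, adjusted p = 0.154). TFE3 (chromosome X, 49028726 to 49043486) was the abundant factor of the pair, at 94.3 and 108.4 CPM in gomisin G libraries and 71.0 and 74.2 CPM in vehicle libraries. Its groups did not overlap either, with a log2 change of 0.48 (SE 0.16, adjusted p = 0.149). Per gene length TFE3 stood far above TFEB in both groups, at 72.9 ± 17.7 TPM (a level scaled by gene length and library total) for TFE3 and 1.11 ± 0.135 TPM for TFEB with gomisin G, and at 56.2 ± 1.60 TPM for TFE3 and 0.500 ± 0.0186 TPM for TFEB with vehicle (SD, n = 2 libraries each).

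TFEB-family factors are known to bind a palindromic E-box element near the start sites of lysosomal genes. RefSeq promoter windows, from 250 bases before to 50 after an annotated start (GRCh38.p14), were at hand for 34 of the 45 genes, as 43 windows. The 6-base E-box CACGTG, a palindrome and so the same on both strands, was in a window of 8 of these 34 genes (23.5%). Of the 15721 tested genes 10555 had a window. The E-box was in windows of 12.6% of these 10555 and of 8.77% of all 27305 genes in the promoter table. The longer palindrome TCACGTGA, which contains the E-box, was in 5 of the 34 (14.7%), and in 2.23% of the 10555 and 1.18% of the 27305 genes. A match describes letters only and is not evidence of binding. The 8 genes with an E-box had a median log2 change of 0.44 and the 26 without one 0.26, and for the longer motif the medians were 0.26 for the 5 genes with it and 0.33 for the 29 without it. The stretches just before the start sites are shown for the member with the lowest p (CTSD), for 4 genes that hold the longer motif (CTSA, ATP6V0D1, GAA and MCOLN1) and for LAMP1, which holds it too and has the most E-boxes. Capitals mark each E-box that lies whole in the stretch, and each stretch is written 5′ to 3′ on the gene's strand. It ends at the base before the RefSeq start site, which can differ from the gene limits given elsewhere. A further E-box of LAMP1, within the longer motif, begins at the last base shown and runs past the start site, so it is not marked.
CTSD (chr11:1763928-1764047, minus strand): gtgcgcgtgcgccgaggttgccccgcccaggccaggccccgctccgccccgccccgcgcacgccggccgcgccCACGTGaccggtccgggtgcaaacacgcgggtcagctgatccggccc
CTSA (chr20:45891215-45891334, plus strand): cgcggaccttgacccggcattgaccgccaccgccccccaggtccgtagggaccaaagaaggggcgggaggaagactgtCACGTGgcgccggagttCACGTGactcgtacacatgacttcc
ATP6V0D1 (chr16:67481158-67481277, minus strand): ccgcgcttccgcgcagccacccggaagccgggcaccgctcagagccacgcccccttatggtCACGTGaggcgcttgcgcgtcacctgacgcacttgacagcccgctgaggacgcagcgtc
GAA (chr17:80101461-80101580, plus strand): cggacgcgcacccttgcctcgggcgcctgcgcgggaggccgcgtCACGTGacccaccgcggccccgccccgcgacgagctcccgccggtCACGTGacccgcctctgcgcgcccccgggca
MCOLN1 (chr19:7522504-7522623, plus strand): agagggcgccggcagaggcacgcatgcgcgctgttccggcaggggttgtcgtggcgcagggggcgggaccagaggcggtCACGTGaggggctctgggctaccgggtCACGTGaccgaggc
LAMP1 (chr13:113297039-113297238, plus strand): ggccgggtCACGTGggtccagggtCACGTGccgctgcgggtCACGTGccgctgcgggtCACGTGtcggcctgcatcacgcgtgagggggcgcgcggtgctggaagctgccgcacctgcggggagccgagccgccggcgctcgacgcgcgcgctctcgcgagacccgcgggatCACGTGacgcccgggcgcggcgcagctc

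**Figure D2:**
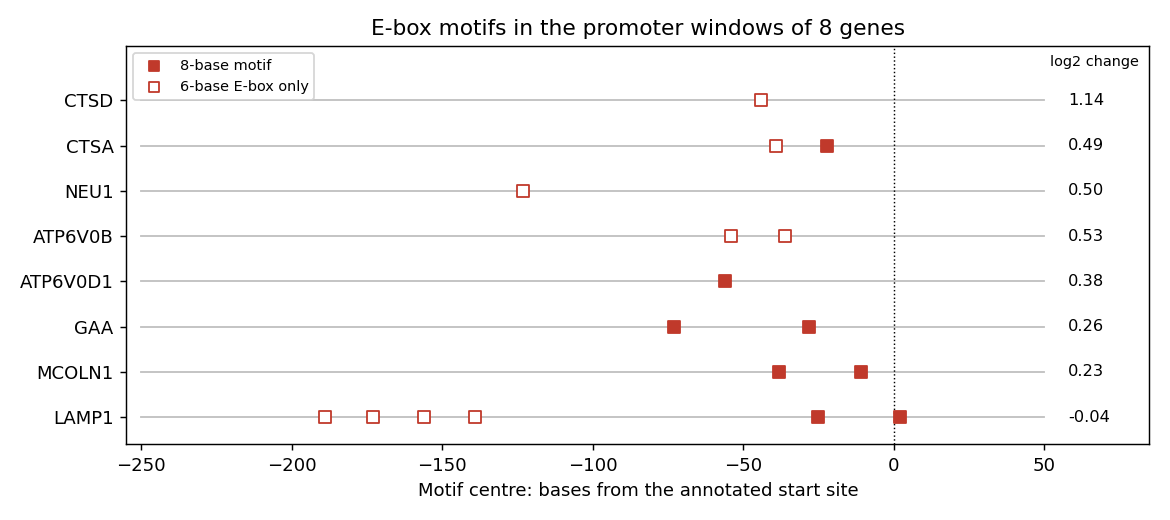
E-box motifs in the promoter windows of the 8 genes that hold one, ordered by p, with the distance of each motif's centre from the annotated start site in bases on the horizontal axis. Filled squares are the 8-base motif, open squares an E-box without those flanks, and the number at the right is the gene's log2 change (gomisin G minus vehicle). CTSD has a single E-box and a log2 change of 1.14, while LAMP1 has the most motifs and a log2 change of -0.04.

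Among the lysosomal proteases, and among all 45 genes, CTSD had the lowest p. CTSD (chromosome 11, 1752752 to 1764573) encodes cathepsin D, the main aspartic protease of lysosomes. It had 1009.6 and 625.5 CPM in gomisin G libraries and 383.6 and 356.8 CPM in vehicle libraries. The groups were well apart, but the gomisin G libraries also differed from each other, and the log2 change of 1.14 (a fold of 2.21, SE 0.24) had an adjusted p of 0.0601. CTSA encodes the carboxypeptidase known as protective protein, which stabilises neuraminidase 1 and beta-galactosidase. It had 151.1 and 130.9 CPM with gomisin G and 99.8 and 100.5 CPM with vehicle, with no overlap and a log2 change of 0.49 (SE 0.16, adjusted p = 0.140). The log2 change was above 0 in 8 of the 9 proteases (50.7% of all tested genes) and had a class median of 0.32. In 7 of the 9 both gomisin G libraries lay above both vehicle libraries (27.0% of all tested genes). CTSS, which passed the filter through gomisin G alone, is among the 8 and the 7. CTSZ, a carboxypeptidase, lay at 91.8 and 87.5 CPM with gomisin G and at 72.4 and 61.6 CPM with vehicle. The cysteine proteases CTSB and CTSL had log2 changes of 0.32 and 0.26, the tripeptidyl peptidase TPP1 0.15 and the aminopeptidase CTSH 0.09. CTSC, the dipeptidyl peptidase that activates granule serine proteases in leukocytes, was the exception, with 28.5 and 25.0 CPM in gomisin G libraries and 28.8 and 34.8 CPM in vehicle libraries (log2 change -0.25). CTSS, a cathepsin typical of antigen-presenting cells, had few counts, with 17 and 15 counts with gomisin G and 7 and 5 with vehicle (log2 change 1.35, SE 0.57, adjusted p = 0.231).

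The glycosidases and lipid hydrolases had a median log2 change of 0.26. In 5 of the 7 both gomisin G libraries lay above both vehicle libraries, where 27.0% of all tested genes had this pattern. NEU1, the lysosomal sialidase that depends on CTSA, had 35.8 and 31.9 CPM with gomisin G and 25.0 and 23.0 CPM with vehicle. The groups did not overlap and the log2 change was 0.50 (SE 0.17, adjusted p = 0.162). GLA, alpha-galactosidase A, had 72.2 and 55.4 CPM with gomisin G and 44.1 and 50.9 CPM with vehicle, a log2 change of 0.42 (SE 0.19, adjusted p = 0.251). Its lower gomisin G library lay just above its higher vehicle library. The beta-hexosaminidase subunit HEXA, the acid alpha-glucosidase GAA and the beta-glucuronidase GUSB had log2 changes of 0.31, 0.26 and 0.13. GAA was nearly the same in both gomisin G libraries, at 161.7 CPM in each, against 132.4 and 137.3 CPM in vehicle libraries. The acid lipase LIPA and the acid ceramidase ASAH1, which degrade cholesteryl esters and ceramide, had log2 changes of -0.01 and -0.03, each with overlapping groups, and both turned positive with upper-quartile factors or with the length trend removed.

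Of the activator, granulin and cholesterol transfer genes, PSAP, GRN and NPC2 had positive log2 changes and NPC1 a negative one, with a class median of 0.34. GRN (chromosome 17, 44345086 to 44353102) encodes progranulin, a secreted and lysosomal protein that is cleaved into granulins. It had 542.6 and 447.6 CPM in gomisin G libraries and 317.7 and 321.2 CPM in vehicle libraries, a log2 change of 0.63 (SE 0.18, adjusted p = 0.104). Both gomisin G libraries lay clear of the vehicle pair, which were nearly equal. PSAP encodes prosaposin, the precursor of the saposins that present sphingolipids to hydrolases. Its levels were 796.3 and 722.2 CPM with gomisin G and 593.7 and 602.8 CPM with vehicle, without overlap, and the log2 change was 0.34 (SE 0.17, adjusted p = 0.303). The cholesterol carriers NPC2, in the lumen, and NPC1, in the membrane, hand cholesterol on in sequence. NPC2 had 165.4 and 104.3 CPM with gomisin G and 106.2 and 107.7 CPM with vehicle, so that replicate 1 was high while replicate 2 lay below both vehicle libraries (log2 change 0.33). NPC1 had 88.1 and 114.5 CPM with gomisin G and 115.1 and 123.4 CPM with vehicle, a log2 change of -0.24 (SE 0.18, adjusted p = 0.479), with both gomisin G libraries below the vehicle pair.

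The main membrane glycoproteins of the lysosome, LAMP1 and LAMP2, were close to their vehicle levels. LAMP1 had 432.9 and 442.8 CPM with gomisin G and 440.7 and 457.2 CPM with vehicle, and LAMP2 had 95.6 and 102.3 CPM with gomisin G and 103.0 and 101.5 CPM with vehicle. The groups overlapped in both genes, with log2 changes of -0.04 (SE 0.16) for LAMP1 and -0.05 (SE 0.15, adjusted p = 0.888) for LAMP2, and the sign of either flipped with upper-quartile factors or with the length trend removed. MCOLN1, the lysosomal calcium channel TRPML1, had 27.8 and 22.0 CPM with gomisin G and 18.3 and 24.1 CPM with vehicle, and here too the groups overlapped (log2 change 0.23, SE 0.21, adjusted p = 0.561).

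**Figure D3:**
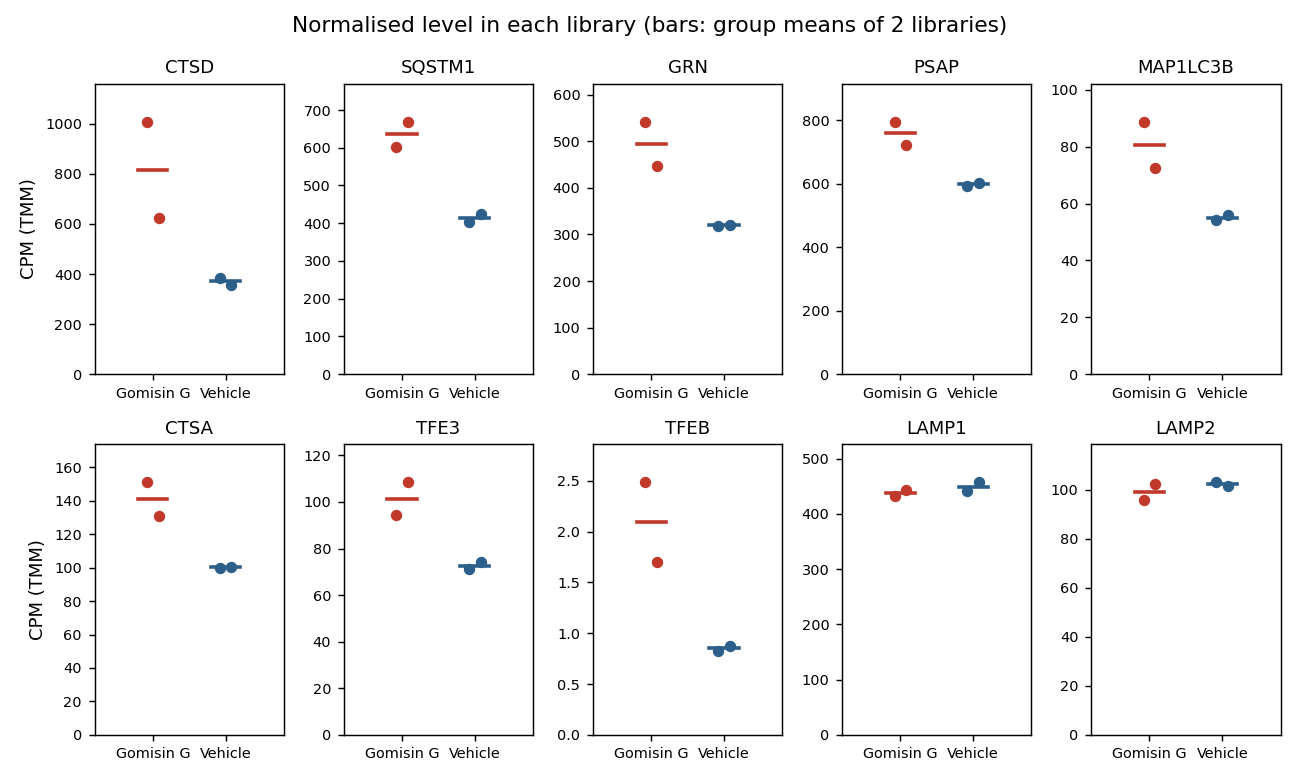
Normalised level (CPM with TMM factors, linear axes that start at 0) of 10 of the genes in each library, with gomisin G at the left of each panel and vehicle at the right. Points are libraries and bars are means of 2 libraries. CTSD spreads from 625.5 to 1009.6 CPM within gomisin G and stays above both vehicle libraries, as do the next 7 genes, while in LAMP1 and LAMP2 the groups overlap.

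Per gene length, PSAP, CTSD, GRN, LAMP1 and SQSTM1 were the most abundant of the 45. With gomisin G they stood at 713.6 ± 54.6 TPM (PSAP), 780.8 ± 149.6 TPM (CTSD), 407.5 ± 3.87 TPM (GRN), 233.7 ± 37.6 TPM (LAMP1) and 255.6 ± 55.9 TPM (SQSTM1). With vehicle they stood at 612.5 ± 5.49, 392.8 ± 20.8, 287.9 ± 1.74, 259.4 ± 6.27 and 179.1 ± 6.35 TPM in the same gene order (SD, n = 2 libraries each). With gomisin G the intervals of mean ± SD of CTSD and PSAP overlapped, as did those of SQSTM1 and LAMP1, while with vehicle no 2 of the 5 intervals overlapped. The lowest of the 45 was CTSS, at a mean over the 4 libraries of 0.540 TPM, followed by TFEB, at 0.807 TPM.

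In the V-ATPase the sectors are given in turn. All 5 genes of the proton-conducting V0 sector had both gomisin G libraries above both vehicle libraries, as had 27.0% of all tested genes. Their median log2 change of 0.38 stood between 0.60 for gomisin G replicate 1 alone and 0.19 for replicate 2 alone. ATP6V0B, a subunit of the proton-carrying ring, had 170.5 and 112.0 CPM with gomisin G and 103.5 and 92.7 CPM with vehicle (log2 change 0.53, SE 0.22, adjusted p = 0.224). ATP6V0E1, a small membrane subunit, had 92.1 and 57.6 CPM with gomisin G and 51.3 and 57.1 CPM with vehicle (log2 change 0.46, SE 0.23, adjusted p = 0.296). In both genes replicate 2 lay just above the vehicle libraries and replicate 1 well above them. ATP6V0D1, which couples the sectors, ATP6V0C, the other ring subunit, and ATP6V0A1, the large membrane subunit, had log2 changes of 0.38, 0.35 and 0.23. Gomisin G replicate 2 lay little above the higher vehicle library in ATP6V0D1 (121.3 against 119.4 CPM) and ATP6V0A1 (112.9 against 109.9 CPM). ATP6V0C is uncertain, since processed copies of it exist in the genome, and ATP6V0CP4 drew 36 counts against 602 for ATP6V0C over the 4 libraries.

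The 6 genes of the ATP-hydrolysing V1 sector were split, 3 positive and 3 negative, with a median of 0.04. ATP6V1E1, a stalk subunit, had 131.6 and 97.3 CPM with gomisin G and 93.5 and 96.8 CPM with vehicle (log2 change 0.27, SE 0.18, adjusted p = 0.440). ATP6V1H, a regulatory subunit, had 61.9 and 50.3 CPM with gomisin G and 48.6 and 46.8 CPM with vehicle (log2 change 0.23, SE 0.17, adjusted p = 0.468). Neither gene's groups overlapped, although replicate 2 was close to vehicle in both. The B subunit ATP6V1B2 had a log2 change of 0.18, and the catalytic subunit ATP6V1A, the C subunit ATP6V1C1 and the rotor subunit ATP6V1D had -0.10, -0.10 and -0.17. Whether the sectors differ was not tested. The accessory proteins ATP6AP1 and ATP6AP2, which take part in assembly of the pump, had log2 changes of 0.24 (SE 0.16, adjusted p = 0.417) and 0.10 (SE 0.17, adjusted p = 0.786). ATP6AP1 lay at 142.4 and 122.4 CPM with gomisin G and at 108.3 and 115.6 CPM with vehicle, whereas ATP6AP2 overlapped, at 94.0 and 73.8 CPM with gomisin G and 80.6 and 76.2 CPM with vehicle.

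The log2 change was above 0 in all 7 autophagy genes, except that GABARAPL1 lay just below 0 with the length trend removed, and GABARAPL1 and GABARAPL2 at -0.0265 and -0.0555 without gomisin G replicate 1. The class median was 0.50. SQSTM1 (chromosome 5, 179806398 to 179838078) encodes the cargo receptor p62. It had 602.5 and 669.6 CPM with gomisin G and 402.5 and 424.3 CPM with vehicle, a log2 change of 0.62 (SE 0.17, adjusted p = 0.102). MAP1LC3B (chromosome 16, 87383995 to 87404779) encodes LC3B, the ubiquitin-like protein that marks autophagosome membranes. Its levels were 88.9 and 72.6 CPM with gomisin G and 54.1 and 56.1 CPM with vehicle, a log2 change of 0.55 (SE 0.17, adjusted p = 0.129). Neither gene's groups overlapped, and SQSTM1, with ULK1 and WIPI1, was higher in replicate 2 than in replicate 1, unlike most of the 45. ULK1, the kinase that starts autophagosome formation, had 55.1 and 67.2 CPM with gomisin G and 42.0 and 45.4 CPM with vehicle. WIPI1, which binds phosphoinositides on the forming membrane, had 13.7 and 15.5 CPM with gomisin G and 9.73 and 10.9 CPM with vehicle. In both the groups were apart.

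The relatives of LC3B in the GABARAP branch were uneven. GABARAP had 131 and 80 counts with gomisin G and 64 and 57 with vehicle, a log2 change of 0.77 (SE 0.33, adjusted p = 0.239), with 1.11 for replicate 1 alone and 0.29 for replicate 2 alone. GABARAPL2 had 53.7 and 36.9 CPM with gomisin G and 41.3 and 35.2 CPM with vehicle, and GABARAPL1 110.9 and 101.9 CPM with gomisin G and 102.1 and 105.1 CPM with vehicle. The groups of GABARAPL1 and GABARAPL2 overlapped. Some members share exonic bases with a gene on the other strand, and the sources used here give no strand setting for the counting. For SQSTM1 the shared bases were 1582 of 7654 with MRNIP and 105 with MGAT4B, whose own log2 change was 0.76 (adjusted p = 0.0632). For MAP1LC3B they were 150 of 5313 with FBXO31 (log2 change 0.25), for WIPI1 828 of 3402 with ARSG (0.30), and for GABARAP 571 of 2266 with AC120057.3 (-0.19). Outside the autophagy genes they were 604 of 10102 for NPC1 with RMC1 (log2 change -0.01), 103 of 2749 for NPC2 with ISCA2 (0.23), 269 of 4251 for ATP6V1D with EIF2S1 (-0.22) and 65 of 4910 for LIPA with IFIT2 (0.67, adjusted p = 0.0800). EIF2S1 and IFIT2 had more counts than the member they overlap, with 9054 against 2946 for ATP6V1D and 11478 against 3270 for LIPA over the 4 libraries. MCOLN1 shares 6 bases with PNPLA6 on its own strand. GABARAP, ATP6V0C and MCOLN1 also overlap protein-coding genes on their own strand that were at 0 counts over the 4 libraries. How far reads of shared stretches enter these values, or are left out of them, was not tested.

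Gene length moved with the changes in the gomisin G libraries. Over the 45 genes Spearman's rho between log2 length and the change against vehicle was -0.47 for the first gomisin G library and -0.24 for the second, and over all 15721 tested genes it was -0.36 and -0.11. All these points share the same 4 libraries. The 23 members up to the median length of 4910 bases had a median change of 0.46 in replicate 1 and 0.19 in replicate 2, and the 22 longer ones 0.26 and 0.14. With the trend on length removed from each library the median of the 45 was 0.26, 39 had a positive log2 change, and 3 were called higher, CTSD, SQSTM1 and ULK1, against 3.06% of all genes called higher. CTSD then had a log2 change of 1.01 and SQSTM1 one of 0.74.

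**Figure D4:**
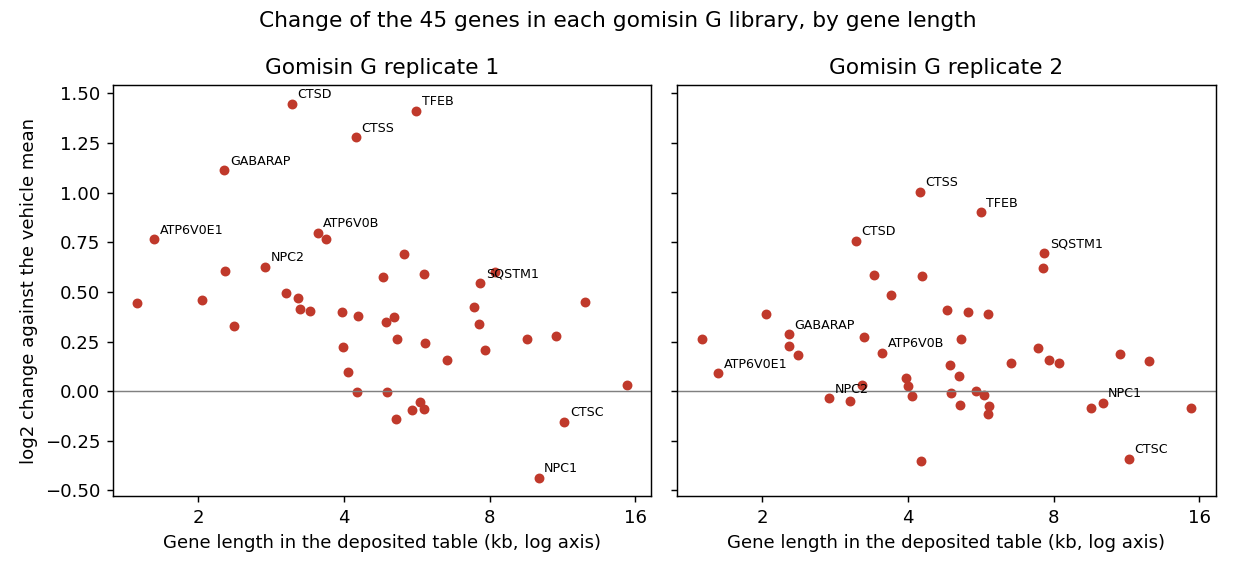
Change of each of the 45 genes against the vehicle mean (log2 CPM scale) in gomisin G replicate 1 (left) and replicate 2 (right), against gene length in kilobases on a log axis. Each point is a gene and some are named. The short genes ATP6V0E1, ATP6V0B and NPC2 lie at 0.76, 0.80 and 0.63 in replicate 1 and at 0.09, 0.19 and -0.04 in replicate 2, while other short genes differ less, such as ATP6V0C (0.44 and 0.26) and CTSZ (0.46 and 0.39).

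The number of calls depended on single libraries. For fits with 1 library left out, no share of all genes at an unadjusted p was at hand. Counts of members at that level therefore cannot be compared with all genes. Without gomisin G replicate 1, 9 members were called, all higher, against 8.25% of all genes called higher, and the median log2 change of all 45 was 0.15. Without gomisin G replicate 2, 25 were called higher and 1, NPC1, lower, against 18.5% and 20.1% of all genes, with a median of 0.39 over the 45. In these fits the vehicle pair alone supplies the spread, and the single gomisin G library is assumed to vary like it. Both fits use the same vehicle pair, so agreement between them is not independent. Without either vehicle library 0 members were called, against 0.960% and 0.813% of all genes without vehicle replicates 1 and 2, with medians over the 45 of 0.31 and 0.29, and 1 member had an unadjusted p below 0.05 in each.

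Beyond the 45 genes, 6 lists of further genes of the same organelle and pathway were read from the same test. Of 36 tested further hydrolases (37 listed) 0 passed over all genes by edgeR, 7 were higher and 1 lower at an unadjusted p below 0.05 (10.9% and 9.62% over all tested genes), and the median log2 change was 0.16. The lowest p among them belonged to ARSA, arylsulfatase A, with 64.9 and 51.8 CPM with gomisin G and 36.3 and 32.4 CPM with vehicle (adjusted p = 0.0765), and to HGSNAT, an acetyltransferase of heparan sulfate breakdown, with 49.1 and 57.1 CPM with gomisin G and 35.7 and 37.0 CPM with vehicle (adjusted p = 0.127). Both had their groups apart. Of 25 tested further membrane proteins and transporters (28 listed) 0 passed, 2 were higher and 2 lower at an unadjusted p below 0.05, and the median was 0.10. The tetraspanin CD63 had 553.2 and 365.4 CPM with gomisin G and 302.0 and 242.7 CPM with vehicle (adjusted p = 0.132). TMEM106B, a lysosomal membrane protein of neurodegeneration genetics, had 50.1 and 55.8 CPM with gomisin G and 90.4 and 79.9 CPM with vehicle (adjusted p = 0.0763), and was thus lower where CD63 was higher.

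Among further V-ATPase subunits, 7 of 11 were tested, 0 passed and the median was -0.02. At an unadjusted p below 0.05, 0 were higher and 2 lower, where 10.9% and 9.62% of all tested genes were. Both of the lower genes are alternative large V0 subunits, relatives of ATP6V0A1. ATP6V0A4, the form typical of kidney intercalated cells, had 0 and 2 counts in gomisin G libraries and 14 and 16 counts in vehicle libraries. Vehicle over gomisin G came to 15.4 (exact 95% interval 3.91 to 133.0, which covers counting error only), with an adjusted p of 0.0758. ATP6V0A4 passed the filter on low counts through its vehicle libraries alone. Its ratio, and its place among the 2 lower genes, rest in part on that filter. ATP6V0A2, the Golgi and endosomal form, had 37.9 and 45.1 CPM with gomisin G and 56.4 and 56.4 CPM with vehicle (adjusted p = 0.191). ATP6V0A1 itself had 120.3 and 112.9 CPM with gomisin G and 89.3 and 109.9 CPM with vehicle, so ATP6V0A1 differed in sign from the other two, and none of the 3 passed the test. Of 29 tested genes for delivery to the lysosome 0 passed, and the median was -0.02. At an unadjusted p below 0.05, 4 of them were higher and 2 lower, against the same 10.9% and 9.62% of all tested genes. BORCS5, a subunit of the BORC complex that positions lysosomes in the cell, had the lowest p of that list, with 28.1 and 24.4 CPM with gomisin G and 14.6 and 14.1 CPM with vehicle and no overlap between the groups (log2 change 0.87, adjusted p = 0.0567).

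One autophagy gene outside the 45 passed the test. WDR45 (chromosome X, 49071470 to 49101170) encodes WIPI4, a relative of WIPI1 that works with ATG2 on the forming autophagosome. It had 62.6 and 51.0 CPM with gomisin G and 27.8 and 28.7 CPM with vehicle, and rose by a log2 change of 1.01 (SE 0.18, adjusted p = 0.0363). The groups were well apart, but the call was lost without vehicle replicate 1 (log2 change 0.98, adjusted p = 0.261) and without vehicle replicate 2 (1.03, adjusted p = 0.214). Over the other settings its adjusted p lay between 2.4e-14 and 0.0450. Of the 39 tested further autophagy genes (41 listed) WDR45 was the 1 that rose, where 0.922% of all tested genes did. In that list 0 fell, and the median was 0.13. At an unadjusted p below 0.05, 3 were higher and 2 lower, where 10.9% and 9.62% of all tested genes were. WIPI2, a further relative of WIPI1, had 124.4 and 101.7 CPM with gomisin G and 82.4 and 77.4 CPM with vehicle (adjusted p = 0.154). Of 32 tested genes of mTORC1 and lysosomal nutrient sensing (33 listed) 0 passed, and the median was 0.09. At an unadjusted p below 0.05, 5 of them were higher and 0 lower, against the same 10.9% and 9.62% of all tested genes. The Rag GTPases RRAGA and RRAGB, which bring mTORC1 to the lysosome, had the lowest p of that list. RRAGA had 103.2 and 76.6 CPM with gomisin G and 57.7 and 63.5 CPM with vehicle (adjusted p = 0.153), and RRAGB had 10.7 and 11.0 CPM with gomisin G and 7.10 and 6.93 CPM with vehicle (adjusted p = 0.151).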

How the data were processed

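The deposited values are unnormalized counts of reads per gene. Per the submitters' processing notes, fastp, HISAT2 and featureCounts were used with the build hg38, with no version or setting named. Coordinates of all 58735 genes were the same as in GENCODE release 29. The whole-series table and the sample tables differed in 0 values. Gene length is the deposited table's own column. Genes were filtered with edgeR 4.0.16 (R 4.3.3) by group, scaled with TMM factors and tested with the robust quasi-likelihood F test, with treatment alone in the design (2 residual degrees of freedom) and Benjamini-Hochberg adjustment over 15721 genes. The SE is the log2 change divided by the root of F. CPM of single genes use the TMM factors, while the summed CPM of the cell type markers use library totals alone. TPM were computed from counts and length. Changes per library use log2 CPM with a prior count of 2. On simulated counts the test recovered 51.0% of 1.5-fold and 77.6% of 2-fold changes, with 5 false calls among 15388 genes. Their spread between libraries was set by a formula, equal in both groups, and was not estimated from these libraries. The shares therefore do not measure how many such changes the test finds in the real data. DESeq2 1.42.0, limma 3.58.1 voom, other factors and filters, the older fit, a replicate block, a length correction (loess, span 0.4) and each library left out were alternatives. Members and lists were chosen with earlier results of these data known. Named in full were the 2 genes with the lowest p of each class or list, TFEB, TFE3 and called genes, and other members were described by role. One gene that this rule names is not reported here.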

Additional observations from a re-analysis of the deposited data

How the results depend on the processing

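In simulated counts with a preset spread, equal in both groups, 51.0% of 1.5-fold and 77.6% of 2-fold changes were recovered. The real spread was unequal, with a chi-square per gene of 37.2 in the gomisin G pair and 6.98 in the vehicle pair. These shares therefore need not hold for the real libraries. TFEB, CTSS and ATP6V0A4 rest on few counts. Over all genes 287 were called, and 883 with DESeq2, 926 with the length trend removed, 2886 with the replicate block and 135 to 6322 with 1 library left out. Of the members 0 were called, and 3 with DESeq2, 3 with the length trend removed, 11 with the replicate block (against 8.96% of all genes called higher) and 0 to 26 with 1 library left out. The count with an unadjusted p below 0.05 was 14, and 1 to 30 with 1 library left out. No share of all genes at an unadjusted p was at hand for the fits with 1 library left out. That range of unadjusted counts therefore cannot be compared with all genes. The replicate numbers are shared labels only: deviations of same-numbered libraries correlated at 0.21 across genes, from 2 pairs, which do not establish pairing. The median of the 45 ranged from 0.15 to 0.39 with 1 library left out. The same ranges were 0.22 to 0.42 for proteases, 0.15 to 0.28 for glycosidases and lipid hydrolases, 0.12 to 0.52 for lipid transfer, activator and granulin proteins, -0.05 to -0.0011 for membrane proteins, 0.18 to 0.60 for V0, -0.0200 to 0.10 for V1, 0.0182 to 0.31 for accessory proteins, 0.78 to 0.96 for the TFEB family and 0.40 to 0.58 for autophagy genes. Upper-quartile factors gave 0.32 for glycosidases and lipid hydrolases, 0.0222 for membrane proteins and 0.56 for autophagy genes, removing the length trend gave 0.0234 for membrane proteins, 0.57 for autophagy genes, 0.20 for lipid transfer, activator and granulin proteins (0.34 before) and 0.28 for accessory proteins (0.17 before), and at least 50 counts in 2 samples, which leaves TFEB out, gave 0.50 for the TFEB family. The cause of these shifts was not tested. Signs turned for genes near 0. LIPA was at 0.0507 with upper-quartile factors, 0.0093 with at least 50 counts and 0.0097 with the length trend removed. ASAH1 was at 0.0313 with upper-quartile factors and 0.29 with the length trend removed. LAMP1 was at 0.0222 and 0.0234 under these, LAMP2 at 0.0112 and 0.0025, and GABARAPL1 at -0.00033 with the length trend removed. With 1 library left out the log2 change ranged from -0.0775 to 0.24 for CTSH, -0.0405 to 0.0188 for LIPA, -0.12 to 0.0667 for ASAH1, -0.0393 to 0.63 for NPC2, -0.0898 to 0.26 for ATP6AP2, -0.0265 to 0.10 for GABARAPL1 and -0.0555 to 0.49 for GABARAPL2. Of all tested genes, DESeq2 called 5.62% in either direction and the replicate block 18.4%. Removing the length trend gave 5.89%, and at least 50 counts in 2 samples 2.64%. The calls in the further lists under these same settings are to be read against these shares, and whether they differ from them was not tested. These shares do not apply to the calls with 1 library left out. In those fits the calls over all genes moved widely too, as given above, and a single library stands for its group. The ranges of calls with 1 library left out therefore do not set a list apart from all genes. Calls in the further lists under DESeq2, the replicate block, the length trend removed and 1 library left out were 1, 5, 2 and 0 to 15 for hydrolases, 0, 3, 1 and 0 to 3 for V-ATPase subunits, 2, 4, 0 and 0 to 8 for membrane proteins and transporters, 3, 4, 1 and 0 to 14 for delivery (1 with at least 50 counts), 1, 3, 1 and 0 to 17 for autophagy genes, and 0, 5, 0 and 0 to 19 for nutrient sensing. Over single genes and the settings that keep all 4 libraries, 517 values kept direction and call, 38 gained a call and 10 turned. Calls over all genes rose in some of these settings too. They went from 1.83% with edgeR to 5.62% with DESeq2, 18.4% with the replicate block and 5.89% with the length trend removed. With 1 library left out 8 values turned.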
